A study of Rattus norvegicus with 6 samples.

Results

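The neuromodulator receptor genes of acetylcholine, serotonin, dopamine, noradrenaline and histamine were examined in rat hippocampal neuron cultures after knockdown of S-SCAM. They were taken from the count table by symbol, as the Chrm, Chrn, Htr, Drd, Adra, Adrb and Hrh genes, and no measured value entered that choice. This gave 48 of 26405 rows: 5 muscarinic, 15 nicotinic, 13 serotonin, 4 dopamine, 8 adrenergic and 3 histamine receptor genes. Another 5 rows without a symbol are described in the table as such receptors (Drd2, Hrh3, Htr4, Chrnb4 and a second Chrm2 row); they fall outside the 48, and only Drd2 and Hrh3 of these passed the filter of the main test (edgeR). RNA was sequenced from 6 cultures, 3 transduced with a lentivirus carrying an shRNA against S-SCAM, the scaffold protein encoded by Magi2 (S-SCAM KD), and 3 transduced with an empty shRNA vector (Control). All cultures came from wild-type hippocampi, taken from embryonic rats by the study's methods. They were transduced at DIV2 and harvested at DIV9 (days in vitro), and they hold every cell that grew in the dish, not neurons alone. A legend in the study names a control shRNA in place of the empty vector, so the kind of control virus is not settled by the sources used here. The study asked with this comparison how loss of S-SCAM alters gene expression in developing neurons.

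Acetylcholine acts on muscarinic receptors, which couple to G proteins, and on nicotinic receptors, which are cation channels built from 5 subunits around a pore. Serotonin, dopamine, noradrenaline and histamine act almost wholly on G protein-coupled receptors, the exception being the serotonin channel formed by Htr3a and Htr3b. The axons that release these transmitters in the hippocampus arrive from other brain regions, among them the septum, the brainstem and the hypothalamus, so a dissociated hippocampal culture holds the receptors without most of their natural inputs. The genes that mark such input neurons had low levels: the summed level of 7 markers found in the table (8 listed, among them Chat, which makes acetylcholine, and Th, which makes the dopamine precursor) was 2.18 to 4.91 CPM in S-SCAM KD cultures and 3.71 to 5.004 CPM in Control cultures, where CPM is the count of a gene scaled to the size of its library. Chat itself was at 0.0693 to 0.108 CPM in S-SCAM KD cultures and 0.0822 to 0.492 CPM in Control cultures.

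Total counts on genes were 18350062, 29654651 and 21949362 in S-SCAM KD cultures 1 to 3 and 23357757, 13061705 and 24874466 in Control cultures 1 to 3, and 3 counts are worth between 0.101 and 0.230 CPM at these depths. Magi2, the targeted gene, had 30.4, 21.1 and 40.4 CPM in S-SCAM KD cultures and 82.8, 74.7 and 95.8 CPM in Control cultures. All S-SCAM KD cultures were thus below all Control cultures, at 36.3% of the Control mean (log2 fold change -1.46, SE 0.27, edgeR adjusted p = 0.23, DESeq2 adjusted p = 0.0012), and the exact two-sided permutation test gave p = 0.1, the smallest that 3 cultures against 3 allow. The S-SCAM KD cultures did not form a tight group: on the first principal component of all tested genes (41.6% of the variance) they stood at 24.2, 73.7 and -17.0, and the Control cultures at -30.4, -28.6 and -22.1. Summed astrocyte markers (6 of 8 tested, 5 of them with lower means in S-SCAM KD) ranged from 1787 to 4312 CPM in S-SCAM KD cultures and from 3087 to 6876 CPM in Control cultures, with Control 1 highest. Summed microglial markers (6 of 11 tested, all with lower means in S-SCAM KD) ranged from 0.381 to 6.40 CPM in S-SCAM KD cultures and from 5.53 to 81.4 CPM in Control cultures, again with Control 1 highest. Fibroblast markers had lower means in S-SCAM KD for 5 of 5 tested (median log2 fold change -1.34). For 4 of them the groups did not overlap, as for 10.2% of all genes tested. Fibroblast markers summed to 63.4 to 280.9 CPM in S-SCAM KD cultures and 149.8 to 388.9 CPM in Control cultures. Choroid plexus markers had lower means for 4 of 4 tested (median -2.31), with Otx2 at 0 in all libraries, and summed to 1.21 to 13.3 CPM in S-SCAM KD cultures and 8.53 to 108.5 CPM in Control cultures. Markers of hippocampal principal neurons had lower means for 5 of 8 tested (median -0.17) and summed to 710.9 to 869 CPM in S-SCAM KD cultures and 759.8 to 965.8 CPM in Control cultures. For 2 of them, Neurod6 and Wfs1, every S-SCAM KD culture was below every Control culture. Interneuron markers were divided, with 5 lower and 6 higher means (median 0.11), and for 2 of the lower ones the groups did not overlap. Oligodendrocyte lineage markers had 5 lower and 3 higher means (median -0.06). In RNA from whole cultures, fewer cells of a type and less RNA per cell cannot be told apart, and the part of these cell types in the receptor levels was not tested.

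Of the 48 receptor genes, 26 were expressed, taken as 10 or more counts in 3 or more libraries: 3 muscarinic (Chrm1, Chrm3, Chrm4), 7 nicotinic (Chrna3, Chrna4, Chrna5, Chrna7, Chrnb1, Chrnb2, Chrne), 9 serotonin (Htr1a, Htr1b, Htr2a, Htr2c, Htr3a, Htr5a, Htr5b, Htr6, Htr7), 1 dopamine (Drd1), 5 adrenergic (Adra1a, Adra1d, Adra2a, Adra2c, Adrb1) and 1 histamine receptor gene (Hrh1). The other 22 were not expressed by this rule. Among them Chrm2, Chrnd, Chrng and Hrh4 had no count in any library, which at these depths allows at most the level of 3 counts given above. Chrnd and Chrng encode nicotinic subunits of muscle, and Hrh4 is best known from immune cells. The highest count in any library was 1 for Chrna6, Chrnb3 and Htr3b, 3 for Htr2b and Drd4, 4 for Chrna9, Htr1f and Adrb3, 6 for Chrna1, Htr1d, Drd5 and Adra2b, 7 for Chrna10, 16 for Chrna2, Chrm5 and Drd3, and 17 for Hrh2. Of the serotonin channel, Htr3a was therefore expressed while its partner Htr3b had at most 1 count in a library. The count of 16 for Drd3 was in Control 1 alone.

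The filter on low counts passed 13917 genes of the whole table and 27 of the receptor genes, the 26 expressed ones and Chrm5. Chrm5 passed through its higher Control counts alone, so it could be counted below only as lower in S-SCAM KD. At an adjusted p under 0.05 (edgeR's quasi-likelihood test, Benjamini-Hochberg), 0 of the 27 receptors were called, as were 0% of all genes. DESeq2, the second test, called 0 of 29 receptors, where it called 1.1% of all genes as lower and 0.256% as higher in S-SCAM KD. At an unadjusted edgeR p under 0.05, 4 receptors (Chrm1, Chrm5, Htr1b and Adra1a) had lower levels in S-SCAM KD, against a background of 7.14% of all genes tested, and 1 (Chrnb2) had a higher level, against 3.69%. With the expression rule as the filter, Chrm5 dropped out, and 3 receptors were lower at that p, against 7.08% of all genes. In 6 receptors (Chrm1, Chrm5, Chrna5, Htr1b, Htr6 and Adra1a) every S-SCAM KD culture was below every Control culture, where 10.2% of all genes tested showed this, and in 1 (Htr5b) every S-SCAM KD culture was above, where 7.42% did. Of the 27 receptors, 20 had lower and 7 higher means in S-SCAM KD, where 7288 of all genes tested had lower and 6629 higher means. The median log2 fold change was -0.44 over the 27 receptors, beside -0.02 over all genes tested. Since the 27 are not independent of each other and were few, this median is a description.

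**Figure D1:**
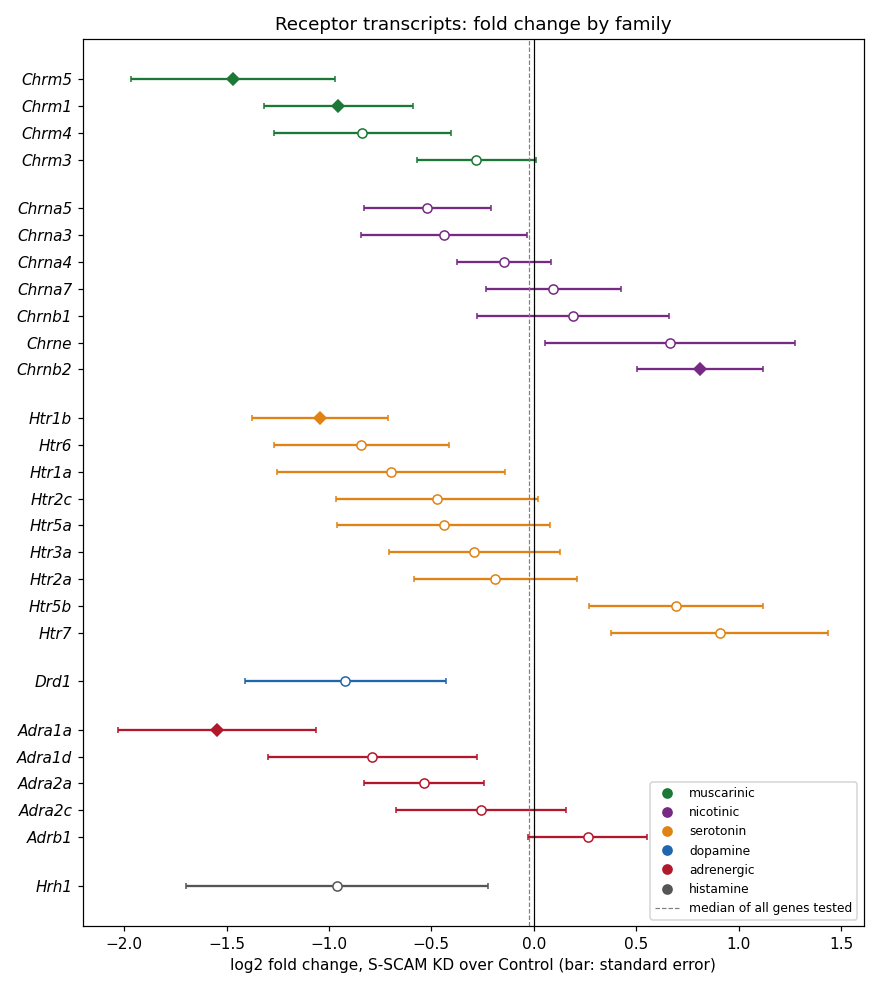
Log2 fold change (S-SCAM KD over Control, edgeR, bars show the standard error) of the 27 receptor genes tested, grouped and coloured by family. Filled diamonds mark the 5 genes with an unadjusted p under 0.05 and open circles the others, and the dashed line is the median of all genes tested at -0.02. All 4 muscarinic genes lie left of 0, whereas the 7 nicotinic genes lie on both sides. The muscarinic gene Chrm5 passed the filter only through its Control counts.

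Medians differed between the families, and no test of that difference was made. All 3 expressed muscarinic genes had lower means in S-SCAM KD (log2 fold changes -0.95, -0.84 and -0.28). So did 4 of 5 adrenergic genes (median -0.54) and 7 of 9 serotonin genes (-0.44). Chrm5, the other muscarinic gene tested, was lower too, but it could enter the test only as lower. The nicotinic subunits were divided, with 3 lower and 4 higher (0.10). Summed over the family, muscarinic transcripts came to 37.3, 21.0 and 29.0 CPM in S-SCAM KD cultures, against 51.4, 40.4 and 49.3 CPM in Control cultures, without overlap. Adrenergic transcripts summed to 32.1, 25.1 and 28.4 CPM in S-SCAM KD cultures, against 38.0, 36.6 and 35.7 CPM in Control cultures, also without overlap. Nicotinic transcripts summed to 160.4, 188.2 and 115.7 CPM in S-SCAM KD cultures, against 117.2, 119.8 and 129.8 CPM in Control cultures, where S-SCAM KD 1 and 2 stood above and S-SCAM KD 3 below the Control range. Serotonin receptor transcripts followed a like order, with 42.3, 43.8 and 23.0 CPM in S-SCAM KD cultures against 39.4, 37.5 and 33.5 CPM in Control cultures.

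**Figure D2:**
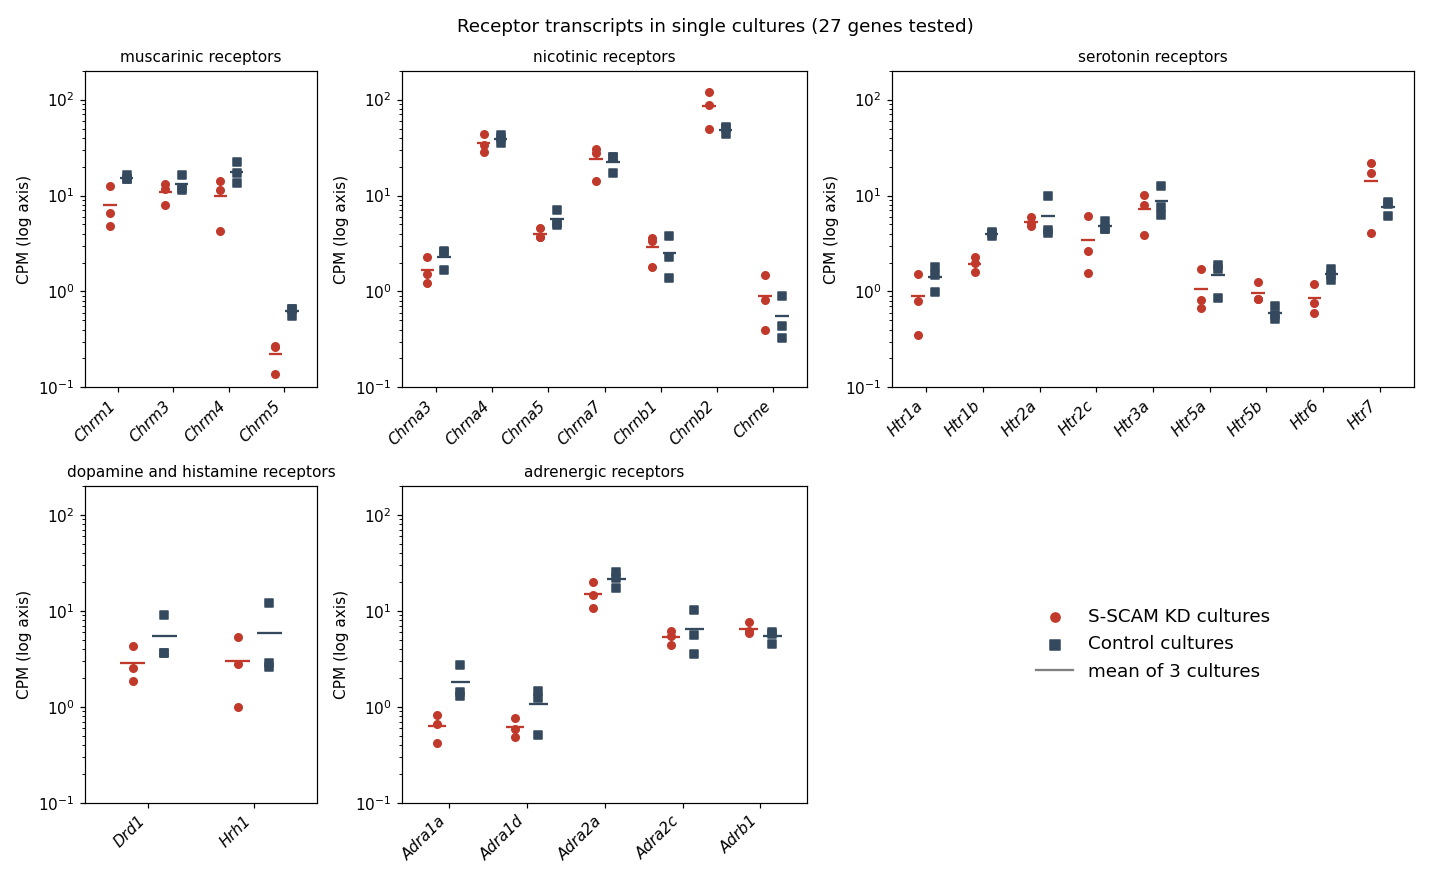
Level of each of the 27 receptor genes tested in CPM (log axis) in the 3 S-SCAM KD cultures (circles, left of each pair) and the 3 Control cultures (squares, right), with horizontal lines at the means. Chrm1, Htr1b and Adra1a show 2 separate groups of points, and for Chrnb2 and Htr7 only S-SCAM KD 1 and 2 lie above the Control points.

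For 3 of the 5 genes with an unadjusted p under 0.05, the promoter in the reference is shown: Chrm1 and Htr1b, which had lower means in S-SCAM KD, and Chrnb2, which had a higher one. The sequences are those of RefSeq on assembly GRCr8, 250 bases before to 50 after the gene's start, 5′ to 3′ on the strand of the gene, and they were not measured in these cultures. Chrm1 lies on the plus strand (chr1:214996109-214996408), Htr1b on the minus strand (chr8:91414766-91415065) and Chrnb2 on the minus strand (chr2:177487257-177487556). Capitals mark matches, on either strand, to the half-site of the cyclic AMP response element (TGACG) and to the GC box (GGGCGG).
Chrm1: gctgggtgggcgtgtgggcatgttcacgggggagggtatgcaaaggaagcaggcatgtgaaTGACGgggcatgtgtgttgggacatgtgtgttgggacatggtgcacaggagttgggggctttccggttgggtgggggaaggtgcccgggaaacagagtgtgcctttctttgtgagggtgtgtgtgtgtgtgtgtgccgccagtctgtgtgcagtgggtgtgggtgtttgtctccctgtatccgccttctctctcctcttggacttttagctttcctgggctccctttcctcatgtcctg
Htr1b: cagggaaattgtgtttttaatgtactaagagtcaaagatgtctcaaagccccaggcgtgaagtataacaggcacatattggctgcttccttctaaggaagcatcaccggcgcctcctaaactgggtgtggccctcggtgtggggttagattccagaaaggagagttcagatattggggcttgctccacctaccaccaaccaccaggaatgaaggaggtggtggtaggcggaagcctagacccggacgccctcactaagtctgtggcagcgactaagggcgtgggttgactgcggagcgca
Chrnb2: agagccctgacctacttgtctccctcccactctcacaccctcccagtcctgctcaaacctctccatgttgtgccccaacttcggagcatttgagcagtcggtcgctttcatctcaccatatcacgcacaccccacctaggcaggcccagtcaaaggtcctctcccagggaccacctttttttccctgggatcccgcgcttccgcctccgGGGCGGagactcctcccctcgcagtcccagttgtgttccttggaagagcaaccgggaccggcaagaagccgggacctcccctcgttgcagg
The Chrm1 window holds 1 half-site, the Chrnb2 window 1 GC box, and the Htr1b window neither of them. Promoters of 37 of the 48 receptor genes were in the RefSeq list, 22 of them of expressed genes. The half-site was found in 6 of these 22 (27.3%), where 21.2% of 33469 rat promoters hold it, and the GC box in 12 (54.5%), where 33.1% do. The full element (TGACGTCA) was in 0 of 22 and in 1.83% of all promoters, and the TATA box (TATAAA, either strand) was in 1 (4.55%) and in 14.2% of all. A match of letters is no evidence of a site in use, and its absence from these windows says nothing of the factors.

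Muscarinic receptors are of the kind that couples to Gq (Chrm1, Chrm3, Chrm5) or to Gi (Chrm2, Chrm4). Chrm1 (ENSRNOG00000018385, chr1:231819886-231821268 on rn5), the main muscarinic receptor of hippocampal pyramidal cells, had 12.5, 4.82 and 6.59 CPM in S-SCAM KD cultures and 16.28, 14.93 and 15.01 CPM in Control cultures. The Control cultures lay close together, and all S-SCAM KD cultures were below them, S-SCAM KD 1 by the least. The means were 7.98 ± 4.03 CPM in S-SCAM KD and 15.4 ± 0.758 CPM in Control (SD, n = 3 each), a log2 fold change of -0.95 (SE 0.36, edgeR unadjusted p = 0.0284, adjusted p = 0.42). Without S-SCAM KD 2 the log2 fold change was -0.66, and without S-SCAM KD 1 it was -1.41, where DESeq2 called the gene (adjusted p = 0.0088). Its table row spans 1383 bases, about the size of a coding region, so counts for this gene may leave out its untranslated exons.

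Chrm4 (ENSRNOG00000017556), which lowers cyclic AMP, had 11.4, 4.23 and 14.3 CPM in S-SCAM KD cultures and 22.5, 13.5 and 17.2 CPM in Control cultures. S-SCAM KD 3 lay within the Control range, so the groups overlapped, and the log2 fold change of -0.84 (SE 0.43, edgeR adjusted p = 0.52) shrank to -0.43 without S-SCAM KD 2. Chrm5 (ENSRNOG00000006397), in the brain best known from dopamine neurons, had 0.271, 0.139 and 0.266 CPM in S-SCAM KD cultures and 0.658, 0.656 and 0.553 CPM in Control cultures. These are at most 16 counts in a library, close to the level of 3 counts, and the gene passed the filter through its Control counts. Its log2 fold change was -1.47 (SE 0.50, edgeR unadjusted p = 0.017, adjusted p = 0.40). Chrm3, which like Chrm1 raises intracellular calcium, overlapped between groups, with 7.92 to 13.1 CPM in S-SCAM KD cultures and 11.3 to 16.5 CPM in Control cultures (log2 fold change -0.28, edgeR adjusted p = 0.75).

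Among nicotinic subunits, Chrna4 and Chrnb2 form the main high-affinity nicotine receptor of the brain, and Chrna7 forms a channel of its own with high calcium permeability. Chrnb2 (ENSRNOG00000020778, chr2:208511421-208519636 on rn5) had 87.0, 120.4 and 49.3 CPM in S-SCAM KD cultures and 43.7, 50.2 and 52.5 CPM in Control cultures. S-SCAM KD 1 and 2 lay above every Control culture, and S-SCAM KD 3 lay among them. The means were 85.6 ± 35.6 CPM in S-SCAM KD and 48.8 ± 4.52 CPM in Control (SD, n = 3 each), a log2 fold change of 0.81 (SE 0.31, edgeR unadjusted p = 0.0288, adjusted p = 0.42). This value turned on single cultures: it was 0.52 without S-SCAM KD 2 and 1.09 without S-SCAM KD 3, where DESeq2 called the gene (adjusted p = 0.0042).

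Chrna4, the partner subunit, had means closer to each other. It ranged from 28.5 to 43.5 CPM in S-SCAM KD cultures and from 35.2 to 42.5 CPM in Control cultures (log2 fold change -0.15, SE 0.23, edgeR adjusted p = 0.85). The ratio of Chrnb2 to Chrna4 counts within a culture was therefore 2.57, 4.23 and 1.13 in S-SCAM KD cultures and 1.24, 1.18 and 1.33 in Control cultures, so that S-SCAM KD 1 and 2 were above and S-SCAM KD 3 below the narrow Control range. Counts of 2 genes also depend on their lengths, so the ratio is not one of molecules, and it can be compared only between cultures. The pair was chosen after its values were seen, and no test was made of it.

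Chrna5, an accessory subunit, had 4.61, 3.67 and 3.72 CPM in S-SCAM KD cultures and 4.89, 5.17 and 7.11 CPM in Control cultures. All S-SCAM KD cultures were below all Control cultures, S-SCAM KD 1 by a small margin, with a log2 fold change of -0.52 (SE 0.31, edgeR adjusted p = 0.58) that was -0.30 without Control 3. Chrna7 ranged from 14.0 to 30.6 CPM in S-SCAM KD cultures and from 17.1 to 25.4 CPM in Control cultures (0.10). As for Chrnb2, S-SCAM KD 3 was the lowest of the S-SCAM KD cultures. Chrna3, a subunit known from autonomic ganglia, had a log2 fold change of -0.44, Chrnb1, a muscle subunit, of 0.19, and Chrne, also of muscle, of 0.67, and each of these overlapped between the groups. Chrne was at 0.328 to 1.49 CPM over the 6 cultures.

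**Figure D3:**
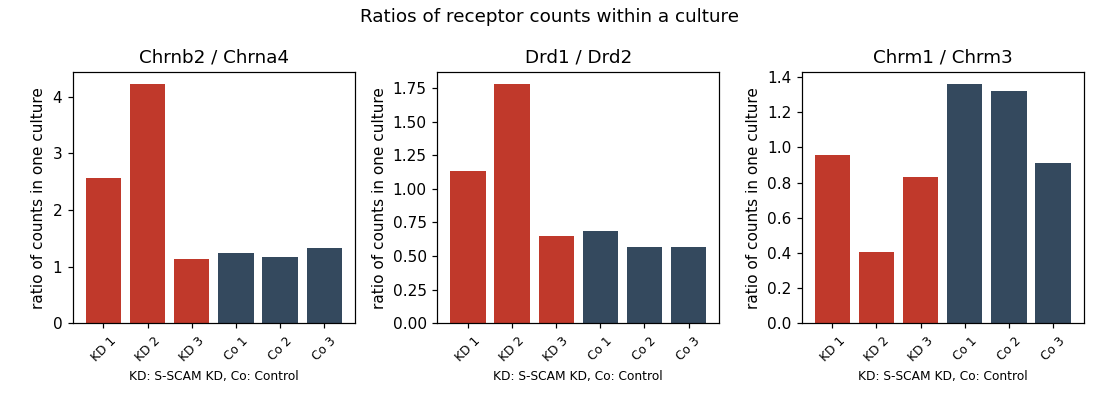
Ratio of counts of 2 receptor genes within each culture, for Chrnb2 over Chrna4, Drd1 over Drd2 and Chrm1 over Chrm3, in S-SCAM KD cultures 1 to 3 (left, red) and Control cultures 1 to 3 (right, dark blue). The Chrnb2 to Chrna4 ratio is 2.57 and 4.23 in S-SCAM KD 1 and 2 but 1.13 in S-SCAM KD 3, beside 1.18 to 1.33 in Control cultures.

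Serotonin receptors differ in their coupling: Htr1 and Htr5 members lower cyclic AMP, Htr2 members act through phospholipase C, and Htr6 and Htr7 raise cyclic AMP. Htr1b (ENSRNOG00000013042, chr8:88666819-88667979 on rn5), which sits on axon terminals and limits transmitter release, had 2.28, 1.97 and 1.59 CPM in S-SCAM KD cultures and 4.19, 4.10 and 3.75 CPM in Control cultures. Both groups were tight and well apart. The means were 1.95 ± 0.342 CPM in S-SCAM KD and 4.02 ± 0.233 CPM in Control (SD, n = 3 each), so that S-SCAM KD was at 48.5% of Control (log2 fold change -1.04, SE 0.33, edgeR unadjusted p = 0.0126, adjusted p = 0.38). Htr1b was the only receptor of the 27 whose unadjusted edgeR p stayed under 0.05 whichever single library was left out (0.0257 to 0.0409, log2 fold change -1.14 to -0.92). DESeq2 did not call it here (DESeq2 adjusted p = 0.17), whereas the study's own DESeq2 list includes it.

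Htr7 (ENSRNOG00000018827) had 17.2, 21.7 and 4.07 CPM in S-SCAM KD cultures and 8.55, 6.07 and 8.25 CPM in Control cultures. S-SCAM KD 1 and 2 were above, and S-SCAM KD 3 below, all Control cultures, the same order of cultures as in the summed nicotinic transcripts. The log2 fold change was 0.91 (SE 0.53, edgeR adjusted p = 0.57), 0.51 without S-SCAM KD 2 and 1.35 without S-SCAM KD 3, where DESeq2 called the gene (adjusted p = 0.0021). Htr6, with 1.19, 0.589 and 0.752 CPM in S-SCAM KD cultures and 1.73, 1.48 and 1.30 CPM in Control cultures, was lower in every S-SCAM KD culture (-0.84, SE 0.43, edgeR adjusted p = 0.51). Htr6 and Htr7, which both raise cyclic AMP, thus had fold changes of opposite sign, and neither passed the test.

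Htr5b, an Htr5 member that is a pseudogene in humans, had 1.25, 0.831 and 0.841 CPM in S-SCAM KD cultures and 0.699, 0.574 and 0.513 CPM in Control cultures. It was the only receptor above the Control range in all S-SCAM KD cultures (0.69, SE 0.42, edgeR adjusted p = 0.59). Its relative Htr5a had a log2 fold change of -0.44, with groups that overlapped. Htr1a, the somatodendritic autoreceptor of serotonin neurons and a receptor of pyramidal cells, stood at -0.70, from 0.354 to 1.52 CPM in S-SCAM KD cultures and from 0.984 to 1.78 CPM in Control cultures. Htr2a (-0.19), Htr2c (-0.47) and Htr3a (-0.29) overlapped between the groups as well, and Htr2c ranged from 1.55 CPM in S-SCAM KD 3 to 6.10 CPM in S-SCAM KD 2.

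Drd1 (ENSRNOG00000023688), which raises cyclic AMP, was the only dopamine receptor gene expressed among the 48. It had 4.28, 2.53 and 1.86 CPM in S-SCAM KD cultures and 9.04, 3.61 and 3.63 CPM in Control cultures. Control 1 stood far above the other Control cultures, and S-SCAM KD 1 lay above Control 2 and 3. The log2 fold change of -0.92 (SE 0.49, edgeR adjusted p = 0.53) was -0.33 without Control 1. Drd2, which lowers cyclic AMP and whose row carries a description but no symbol, had 3.79, 1.42 and 2.88 CPM in S-SCAM KD cultures and 13.2, 6.40 and 6.36 CPM in Control cultures, again with Control 1 highest but without overlap. Its log2 fold change was -1.69 (SE 0.47, edgeR unadjusted p = 0.0061, adjusted p = 0.35). DESeq2 called it here (adjusted p = 0.03), the only receptor that either test called with all 6 libraries, and the study's own DESeq2 list includes it. That call was lost without S-SCAM KD 2, without Control 1 and without Control 3 (DESeq2 adjusted p from 0.0315 to 0.42 over the 6 libraries left out). Its log2 fold change in edgeR was -1.99 to -1.25 over these fits, with an unadjusted p of 0.0066 to 0.0303. Markers of striatal projection neurons, where both dopamine receptors are abundant, summed to 192.2 to 272.7 CPM in S-SCAM KD cultures and 219.8 to 268.6 CPM in Control cultures, overlapping, and of the 12 genes 5 had lower and 7 higher means in S-SCAM KD.

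Noradrenaline acts through alpha1 receptors on Gq, alpha2 receptors on Gi and beta receptors on Gs. Adra1a (ENSRNOG00000009522) had 0.813, 0.416 and 0.664 CPM in S-SCAM KD cultures and 2.71, 1.31 and 1.42 CPM in Control cultures. Every S-SCAM KD culture was below every Control culture, with S-SCAM KD at 34.7% of the Control mean. This was the lowest fold change of the 27 receptors (log2 -1.54, SE 0.48, edgeR unadjusted p = 0.0115, adjusted p = 0.38), and without Control 1 it was -1.13. Adra2a, an alpha2 receptor of cell bodies and terminals, had 19.8, 10.7 and 14.5 CPM in S-SCAM KD cultures and 25.7, 17.4 and 22.1 CPM in Control cultures, overlapping only through S-SCAM KD 1 and Control 2 (-0.54, SE 0.29, edgeR adjusted p = 0.54). It was -0.31 without S-SCAM KD 2. Adra1d (-0.79) and Adra2c (-0.26) overlapped as well. Adrb1, a beta receptor, ranged from 5.85 to 7.66 CPM in S-SCAM KD cultures and from 4.52 to 6.07 CPM in Control cultures (0.26, edgeR adjusted p = 0.77).

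Hrh1, the Gq-coupled histamine receptor, which is also present in astrocytes, had 5.31, 1.00 and 2.79 CPM in S-SCAM KD cultures and 11.96, 2.62 and 2.88 CPM in Control cultures. The highest value of each group was in its replicate 1, and the log2 fold change of -0.96 (SE 0.74, edgeR adjusted p = 0.67) turned to 0.13 without Control 1. Summed astrocyte markers had the same order at the top, with 6876 CPM in Control 1 and 4312 CPM in S-SCAM KD 1, and at the bottom, with 1787 CPM in S-SCAM KD 2, and their part in the Hrh1 level was not tested. Hrh3, the Gi-coupled histamine receptor, whose row has no symbol, ranged from 4.99 to 9.96 CPM in S-SCAM KD cultures and from 6.58 to 13.2 CPM in Control cultures (-0.48, edgeR adjusted p = 0.67).

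Single cultures took part unequally in these patterns. Of the 27 receptors, Control 1 had the highest of the 6 values for 11, and S-SCAM KD 2 and S-SCAM KD 3 the lowest for 10 each. S-SCAM KD 2 also had the highest value for 6, Chrnb2, Htr7 and Chrna7 among them. Relative to the mean of the Control cultures, the median receptor stood at -0.20, -0.52 and -0.67 (log2 of CPM plus 0.1) in S-SCAM KD cultures 1 to 3. In Control cultures 1 to 3 it stood at 0.18, -0.10 and -0.04. Without Control 1, Htr1b alone of the 27 had an unadjusted p under 0.05 in edgeR.

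**Figure D4:**
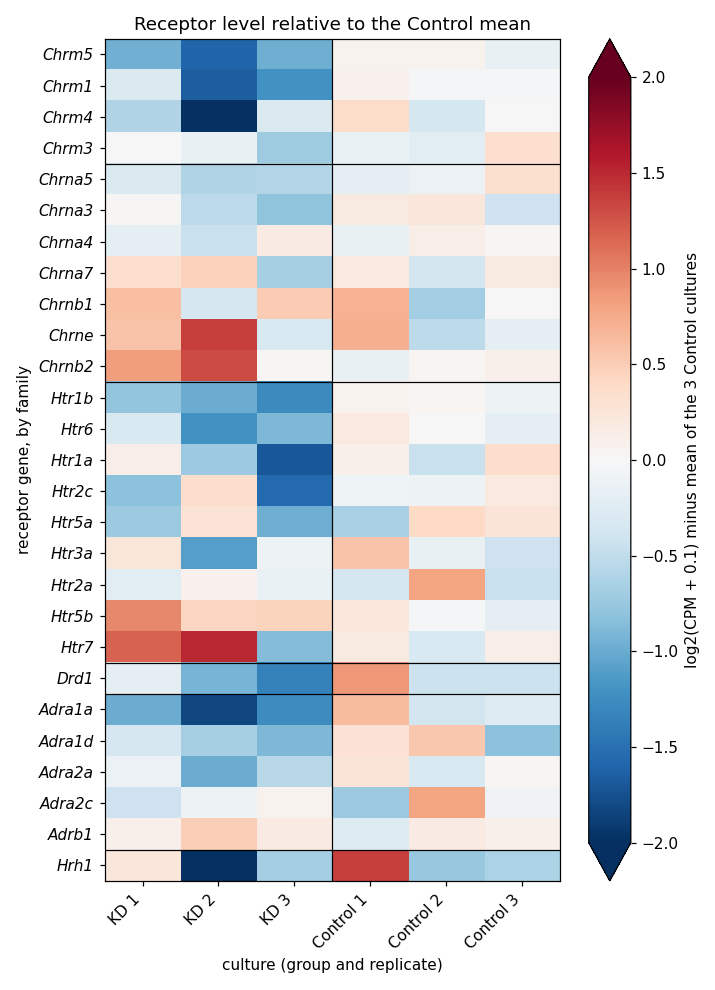
Level of the 27 receptor genes in each culture as log2(CPM + 0.1) minus the mean of the 3 Control cultures (red above, blue below), with S-SCAM KD cultures on the left, Control cultures on the right and horizontal lines between families. Most squares of S-SCAM KD 2 and 3 are blue (medians -0.52 and -0.67), while the strongest red of Chrnb2 and Htr7 is in S-SCAM KD 1 and 2.

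Genes that make, carry and signal for these transmitters were taken from lists of the pathway, and edgeR called 0 of them. For comparison with these lists, 7288 of all 13917 genes tested had lower and 6629 higher means in S-SCAM KD. At an unadjusted edgeR p under 0.05, 7.14% of all genes were lower and 3.69% higher. Groups did not overlap for 10.2% as lower and 7.42% as higher in S-SCAM KD. Of 14 tested genes of transmitter synthesis, transport and breakdown, 12 had lower and 2 higher means in S-SCAM KD (median log2 fold change -0.45). The 2 with an unadjusted p under 0.05 were Slc5a7, the choline transporter of cholinergic terminals (-1.63, edgeR adjusted p = 0.40), and Gch1, which starts synthesis of the cofactor for serotonin and catecholamine production (-1.08, edgeR adjusted p = 0.44), both with levels of 2.63 CPM or less. Of 8 chaperones and modulators of nicotinic receptors, 5 had lower and 3 higher means. Lypd6 (-1.21, edgeR adjusted p = 0.36) and Lypd6b (-1.07, edgeR adjusted p = 0.35), small proteins that modulate nicotinic receptors, were lower in every S-SCAM KD culture at an unadjusted p under 0.05. Ly6e, a membrane protein of the same family, was higher in every S-SCAM KD culture, with 95.1, 106.5 and 78.9 CPM in S-SCAM KD cultures and 55.7, 57.6 and 55.0 CPM in Control cultures (0.74, edgeR adjusted p = 0.33). The study's own DESeq2 list includes Lypd6, Lypd6b and Ly6e.

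Downstream of the receptors, 7 of 11 G protein alpha subunits had lower means in S-SCAM KD (median -0.16), and none had an unadjusted p under 0.05. Of the receptor kinases and arrestins, 2 of 6 had lower means (median 0.05), 1 of them, Adrbk1, at an unadjusted p under 0.05 (-0.52, edgeR adjusted p = 0.45). Of the RGS proteins, which speed the switching-off of G proteins, 10 of 11 had lower means (median -0.25). Rgs14, a protein enriched in hippocampal area CA2, had 4.34, 1.66 and 6.73 CPM in S-SCAM KD cultures and 9.50, 23.5 and 17.0 CPM in Control cultures. It was lower in every S-SCAM KD culture (-1.97, SE 0.53, edgeR adjusted p = 0.35), and DESeq2 called it (adjusted p = 0.0146). All 3 tested phospholipase C beta genes had lower means (median -0.51), and so did 2 of 3 other receptor partners (-0.29), none at an unadjusted p under 0.05.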

How the data were processed

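RNA-seq libraries of 3 S-SCAM KD and 3 Control cultures were compared, with groups taken from the sample titles. The kit used by the authors (TruSeq v2) does not keep strand. Per the labels and methods they used CASAVA 1.8.2, FastQC 0.10.0, STAR 2.3.0 (genome rn5), SAMtools 1.2, HTSeq 0.6 and, for their own test, DESeq2 1.8.1. The deposited values are raw counts of reads per Ensembl gene, without normalization. The Ensembl release and the HTSeq overlap and strand settings are not given in the sources used here, and reads of overlapping genes cannot be told apart. The table gives a start and end for each gene but no exons, so levels were compared between cultures and not between genes.

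The main test was the quasi-likelihood F test in edgeR 4.0.16 (R 4.3.3). TMM factors and filterByExpr were applied first (13917 genes passed), condition was the only term, and p-values were adjusted by Benjamini-Hochberg over these genes. DESeq2 1.42.0 was the second test (14456 genes). CPM used TMM-scaled library sizes (factors 0.934 to 1.04). The steps were tested on simulated counts with less spread between libraries than these cultures show and with larger changes than those of the receptors. That test therefore does not show how well changes of this size are found here. No pair of libraries within a group was a copy of another (chi-square per degree of freedom 68.9 or more). The study's legend gives independent experiments. The receptor genes were matched by symbol, and 8095 rows of the table have no symbol. The values of 1 receptor gene that was not expressed are not reported here. Values per culture are given for receptors with an unadjusted p under 0.05, with groups that do not overlap, called by DESeq2, or most abundant in their family. List genes were named at an unadjusted p under 0.05. Levels of Chat, Hrh3 and the genes given by range, and the ratios, were added after values were seen. Receptors and lists were chosen with earlier results of these data known. Alternatives were other normalizations and filters, DESeq2, a replicate block and leaving out each library.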

Additional observations from a re-analysis of the deposited data

How the results depend on the processing

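Under RLE or upper-quartile normalization and under 2 other filters on counts, edgeR called 0 genes and 0 receptors, and the median receptor log2 fold change stayed between -0.56 and -0.32 over all alternatives. DESeq2 called 196 genes and edgeR without a filter 8, and neither called any of the 48 receptors. Counts of called receptors here leave out Drd2, which lies outside the 48 and was called by DESeq2 (adjusted p = 0.03). Leaving out each library gave 0 to 742 called genes (edgeR 0 or 1, the 1 without S-SCAM KD 2, and DESeq2 43 without Control 3 to 742 without S-SCAM KD 3). Of the 48 receptors, 0 to 2 were called, all by DESeq2: Chrm1 without S-SCAM KD 1, and Chrnb2 and Htr7 without S-SCAM KD 3. Receptors with an unadjusted p under 0.05 then numbered 1 to 6 lower and 0 to 2 higher in S-SCAM KD, where 4.41% to 11.3% of all genes were lower and 1.68% to 7.4% higher at that p. The log2 fold change of Magi2 was past the threshold with DESeq2 (-1.44), and was -1.71 to -1.22 over single libraries left out, past it in all DESeq2 fits but that without Control 3. Hrh1 changed sign without Control 1 (0.13 in edgeR, 0.16 in DESeq2; -1.61 to 0.16 over all libraries left out). The cause was not tested.

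The labels and the deposited column names share numbers between the groups but do not say whether a number marks a shared preparation. Deviations of same-numbered cultures correlated at 0.61, 0.10 and -0.09, and only those of replicate 1 correlated best with their own number. With 3 cultures a group, these correlations cannot settle whether preparations were shared. The cultures were not treated as paired in the main fit, since the study's methods name no such term. With the replicate block, 7 receptors were lower in edgeR at an unadjusted p under 0.05 (Adra2a, Chrm4 and Drd1 added), as were 8.09% of all genes. With it, edgeR called 0 genes, and DESeq2 called 288 genes and 0 of the 48 receptors. DESeq2 also called Drd2, outside the 48, in this fit, and Magi2 was at -1.48 in DESeq2. Among tested receptors whose groups overlapped, Chrm4, Drd1, Adra2a, Hrh1, Adra1d, Chrna3 and Htr5a were lower in S-SCAM KD in 3 of 3 same-numbered cultures. The share of all genes with this pattern was not counted, so it is no result about these receptors. Counts were low for Chrm5, Chrne, Htr5b, Adra1a, Adra1d, Htr1a, Htr5a and Htr6, among others. With such counts and 3 cultures a group, a p that misses the threshold does not show equal levels.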
